A study of Mus musculus with 8 samples.

Results

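Kit and its relatives among the class III receptor tyrosine kinases, together with their ligands, were followed through RNA sequencing of c-Kit-enriched cells from B16F10 tumours. The set was taken by gene name from the table of read counts and held 10 of its 55450 genes. The 5 receptors were Kit, Csf1r, Flt3, Pdgfra and Pdgfrb, and the 5 ligands were Kitl, Csf1, Il34, Flt3l and Pdgfa. All 10 had at least 1 count in some library, and 9 passed the filter on low counts; Il34 did not.

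B16F10 is a pigmented melanoma line of C57BL/6 mice. Each of the 4 PERK KO libraries came from a separate tumour grown from B16F10 cells lacking PERK (gene Eif2ak3, a kinase of the endoplasmic reticulum stress response), and each of the 4 Scramble libraries from a separate tumour of the control line. All tumours grew under the skin of wild-type mice that received 150000 cells at 6 weeks of age, and they were taken on day 17, so PERK was removed from the injected cells only and every host cell kept it. The labels do not say whether the PERK KO line was 1 clone, nor whether every tumour had a mouse of its own. The c-Kit-positive cells were enriched with magnetic beads rather than by flow sorting, and the labels call them precursors. The PERK KO libraries are numbered 1 to 4 and the Scramble libraries 2 to 5.

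Class III receptors share an extracellular part of immunoglobulin-like domains and a kinase domain split by an insert, and ligand binding brings receptor molecules together in pairs so that they phosphorylate each other. Kit binds stem cell factor, the product of Kitl, and is carried by blood stem and progenitor cells, mast cells, cells of the melanocyte lineage and luminal progenitors of the mammary gland. Csf1r is the receptor of macrophages and their precursors and binds both the Csf1 and the Il34 product. Flt3 directs early progenitors and dendritic cells and binds the Flt3l product. The platelet-derived growth factor receptors Pdgfra and Pdgfrb mark fibroblasts and mural cells, the contractile cells around vessels, and Pdgfa encodes a ligand of the Pdgfra product.

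Library totals ran from 29006949 to 47530393 counts in PERK KO tumours and from 44950033 to 56697163 counts in Scramble tumours. Levels are given in CPM, counts scaled to a common library size with TMM factors, and a floor of 3 counts lay between 0.0697 and 0.101 CPM in PERK KO libraries and between 0.0515 and 0.0650 CPM in Scramble libraries, counting error only. The targeted gene matched the labels: Eif2ak3 had 13.8 ± 7.07 CPM in PERK KO and 54.3 ± 4.67 CPM in Scramble libraries (SD, n = 4 each). Some libraries stood apart. Mitochondrially encoded genes took 19.2% and 13.9% of the counts of PERK KO libraries 2 and 3, against 5.22% and 6.89% in PERK KO libraries 1 and 4 and 3.71% to 4.50% in Scramble libraries. Scramble library 4 was lowest in leukocyte markers: its 10 pan-leukocyte markers summed to 53.9 CPM, against 92.1 to 110.3 CPM in the other Scramble libraries. PERK KO library 4 was highest, with 1018.6 CPM, against 247.6 to 430.7 CPM in the other PERK KO libraries.

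Kit did not pass the test between the groups, while Csf1r and Flt3 were higher in every PERK KO library than in any Scramble library. Of the 9 tested members, 2 were called higher and none lower at an adjusted p under 0.05 in edgeR's quasi-likelihood test, against 13.8% of all 16662 genes tested being called in either direction, 7.66% higher and 6.13% lower. In 3 of the 9, Csf1r, Flt3 and Flt3l, the groups did not overlap, against 21.3% of all genes tested. The median log2 change of the 9 members was 0.55, against -0.02 over all genes tested. The ligands Kitl, Csf1 and Pdgfa were higher at an unadjusted p under 0.05, but none of these reached the adjusted threshold. The share of all genes tested that passes unadjusted was not counted, so this looser threshold has no background to be read against.

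**Figure D1:**
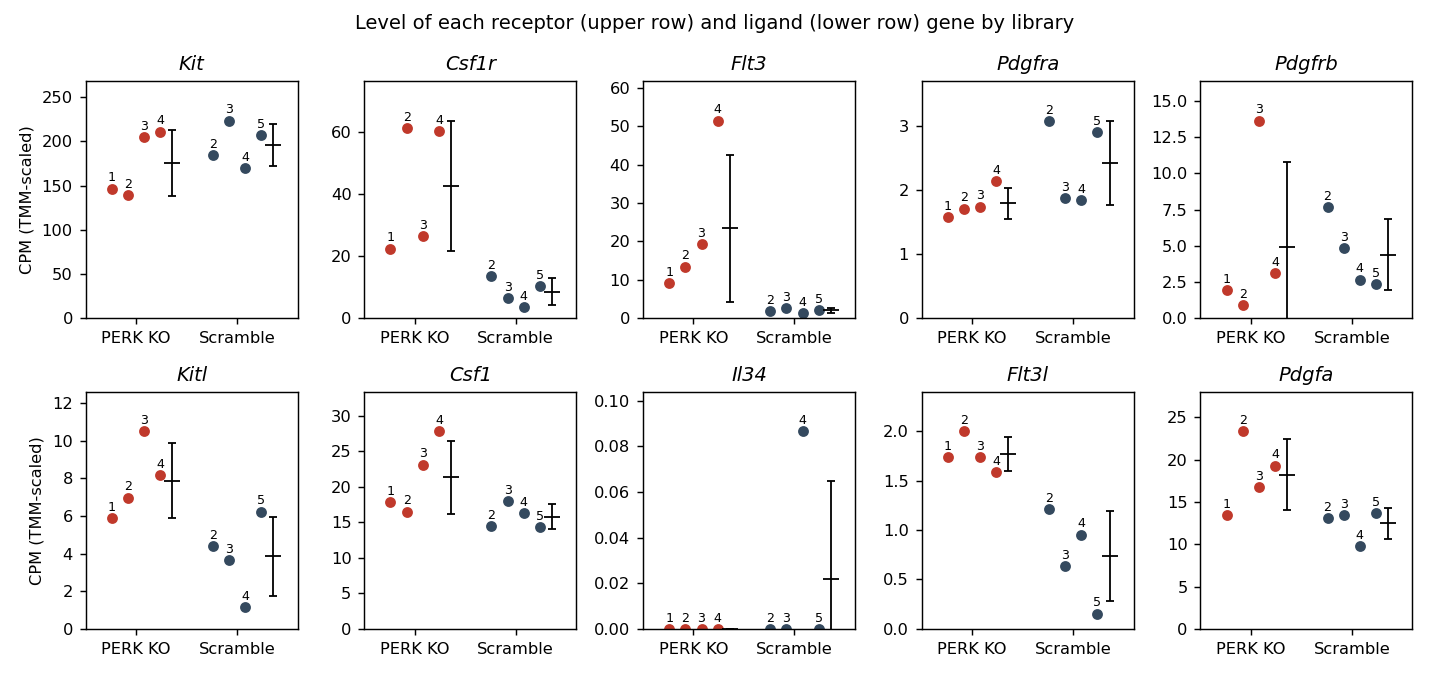
TMM-scaled CPM of each member in each library, receptors above and ligands below, PERK KO left of Scramble in each panel. Numbers above points are the library numbers, and the bar to the right of each group is its mean ± SD (n = 4; for Pdgfrb and Il34 the lower end is cut off at 0). Csf1r, Flt3 and Flt3l show groups that do not overlap, Kit shows overlapping groups, and Il34 has counts in Scramble library 4 alone.

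Kit (ENSMUSG00000005672.12) lies on chromosome 5 of mm10, plus strand, at 75574916 to 75656722, and Pdgfra ends 376.7 kb before it on the same strand. The level of Kit was 146, 139, 205 and 211 CPM in PERK KO libraries 1 to 4, and 185, 223, 169.7 and 207 CPM in Scramble libraries 2 to 5. The lowest values were those of PERK KO libraries 1 and 2, and the groups overlapped. The log2 difference was -0.16 (SE 0.15, 95% interval -0.48 to 0.16, edgeR adjusted p = 0.559), so a Kit change larger than that interval in either direction was not seen, while smaller ones remain possible. Across all 8 libraries the highest Kit level was 1.61 times the lowest. Every library came from cells enriched by c-Kit itself, so these levels are not those of the whole tumours. The part of that selection in the level and evenness of Kit was not tested.

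Csf1r (ENSMUSG00000024621.16) lies on chromosome 18, plus strand, at 61100598 to 61132149, and starts 15.5 kb after the end of Pdgfrb. Its level was 22.4, 61.2, 26.3 and 60.2 CPM in PERK KO libraries 1 to 4, and 13.6, 6.46, 3.62 and 10.4 CPM in Scramble libraries 2 to 5. PERK KO libraries 2 and 4 were high and libraries 1 and 3 lower, all above every Scramble library; such a gap, in the same direction, was found at 10.2% of all genes tested. Csf1r rose by a log2 value of 2.32 (SE 0.49; edgeR adjusted p = 0.0162, higher in 4 of 4 libraries). The call ended without Scramble replicate 3 (adjusted p = 0.0667) and with no filter on low counts (adjusted p = 0.0593). It also ended with the library numbers fitted as a block (edgeR adjusted p = 0.0622), which uses the 3 shared numbers only. In that fit 208 of all genes were called, against 2299 in the fit reported. Csf1r shares 873 exon bases with Hmgxb3 on the opposite strand. The libraries were strand-specific, but the strand setting of the counting is not given in the sources used here. Hmgxb3 itself had 39.2 ± 3.58 CPM in PERK KO and 38.9 ± 2.67 CPM in Scramble libraries (SD, n = 4 each).

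Flt3 (ENSMUSG00000042817.15) lies on chromosome 5, minus strand, at 147330741 to 147400489. Its level was 9.24, 13.5, 19.3 and 51.5 CPM in PERK KO libraries 1 to 4, and 1.94, 2.70, 1.34 and 2.15 CPM in Scramble libraries 2 to 5. PERK KO library 4 was 3.68 times the mean of the other 3 PERK KO libraries, and the groups did not overlap. Flt3 rose by a log2 value of 3.52 (SE 0.53; edgeR adjusted p = 0.00330, higher in 4 of 4 libraries), and by 2.78 without PERK KO replicate 4. The Flt3 call ended only with the library numbers fitted as a block (edgeR adjusted p = 0.05002), again on the 3 shared numbers only. Flt3 was the member with the largest log2 change among the 9 tested.

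The bases before the annotated start of Kit and of Flt3 are shown because the first is the receptor used for enrichment, with overlapping groups, and the second the member with the largest change. Both are read 5′ to 3′ on the strand of the gene from RefSeq's promoter sequences (build GRCm38.p6), Kit from chr5:75574737-75574915 on the plus strand and Flt3 from chr5:147400490-147400739 on the minus strand, and they stop before the first transcribed base of the annotation. Capitals mark the letters GAGGAA, the core of sites bound by PU.1 (gene Spi1) and other ETS factors, or GGGCGG, the GC box bound by Sp1.
Kit: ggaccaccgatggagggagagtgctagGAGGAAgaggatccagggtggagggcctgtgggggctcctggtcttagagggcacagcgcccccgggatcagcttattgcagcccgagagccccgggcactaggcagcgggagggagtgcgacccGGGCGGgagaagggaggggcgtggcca
Flt3: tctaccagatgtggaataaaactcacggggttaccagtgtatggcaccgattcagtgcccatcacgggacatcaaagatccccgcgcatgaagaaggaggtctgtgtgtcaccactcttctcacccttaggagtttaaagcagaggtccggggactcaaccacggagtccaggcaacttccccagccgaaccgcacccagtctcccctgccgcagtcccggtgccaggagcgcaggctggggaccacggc
Searched on both strands, the Kit stretch of 179 bases held 1 match to the ETS core and 1 to the GC box, which do not overlap each other. It held no CATGTG, an E-box of the kind MITF binds, and no match to the GATA motif AGATAA. The Flt3 stretch of 250 bases held none of the 4. In the same 179 positions of 27025 RefSeq promoters, the ETS core was found in 17.0%, the GC box in 20.7%, the E-box in 9.36% and the GATA motif in 7.93%. In the 250 positions these shares were 23.1%, 32.9%, 12.2% and 10.3%. These matches describe the letters only.

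The platelet-derived growth factor receptors were low and did not pass. Pdgfra (ENSMUSG00000029231.15, chromosome 5, plus strand, 75152292 to 75198215) had 1.57, 1.71, 1.74 and 2.13 CPM in PERK KO libraries 1 to 4, and 3.08, 1.87, 1.84 and 2.90 CPM in Scramble libraries 2 to 5, with overlapping groups. Its log2 difference was -0.44 (SE 0.43, edgeR adjusted p = 0.606). Pdgfrb (ENSMUSG00000024620.11, chromosome 18, plus strand, 61045150 to 61085061) had 1.94, 0.903, 13.65 and 3.09 CPM in PERK KO libraries 1 to 4, and 7.68, 4.86, 2.66 and 2.34 CPM in Scramble libraries 2 to 5. PERK KO library 3 was the highest of all 8 and PERK KO library 2 the lowest, so that the spread within the group exceeded the difference between groups (log2 difference 0.16, SE 0.74, edgeR adjusted p = 0.932). Without PERK KO replicate 3 the difference turned to -1.15.

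Per exon length, Kit was at the top of the receptors in both groups, in cells that had been enriched by c-Kit. Kit averaged 19.7 ± 4.24 CPM per kb in PERK KO and 22.0 ± 2.66 CPM per kb in Scramble libraries (SD, n = 4 each), above every other receptor in every library. In PERK KO libraries Csf1r followed with 7.36 ± 3.64, then Flt3 with 3.79 ± 3.11, Pdgfrb with 0.894 ± 1.08 and Pdgfra with 0.178 ± 0.0239 CPM per kb. In Scramble libraries the order below Kit was Csf1r with 1.47 ± 0.758, Pdgfrb with 0.800 ± 0.450, Flt3 with 0.329 ± 0.0905 and Pdgfra with 0.242 ± 0.0657 CPM per kb. Below Kit, each receptor overlapped its neighbour in the order in both groups. Kit made up 54.4% to 73.6% of the summed receptor level per kb in PERK KO libraries and 82.6% to 92.6% in Scramble libraries. Csf1r made up 13.65% to 36.9% in PERK KO libraries and 3.05% to 9.38% in Scramble libraries, and Flt3 6.70% to 19.3% in PERK KO libraries and 1.06% to 1.58% in Scramble libraries. The shares of these 3 receptors did not overlap between the groups, and the summed level per kb of all 5 ran from 22.3 to 43.2 in PERK KO libraries and from 20.6 to 27.7 in Scramble libraries.

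**Figure D2:**
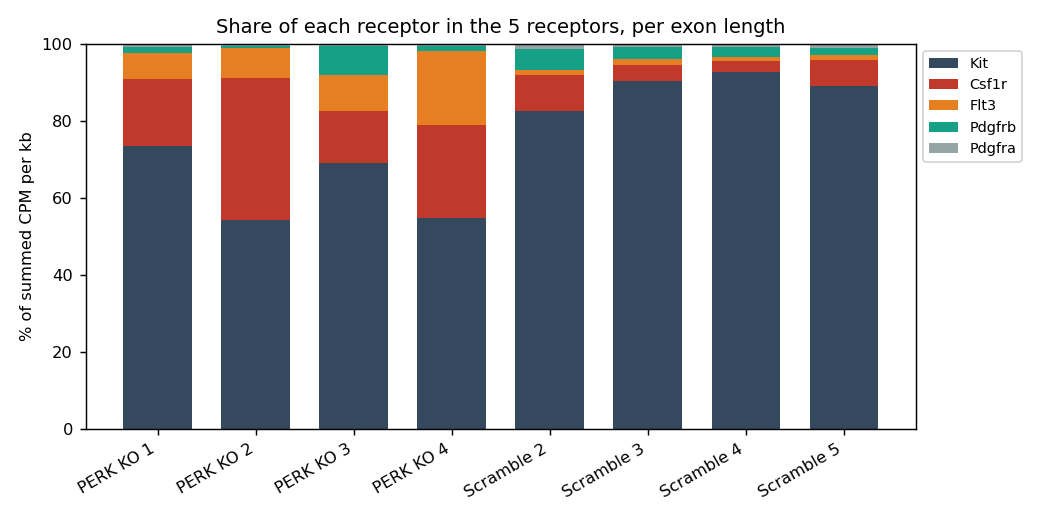
Share of each of the 5 receptors in their summed CPM per kb of exon, 1 bar per library, PERK KO libraries first. Kit fills at most 73.6% of a PERK KO bar and at least 82.6% of a Scramble bar, with Csf1r and Flt3 taking most of the rest in PERK KO libraries.

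None of the ligands passed the test. Kitl, which encodes stem cell factor (ENSMUSG00000019966.18, chromosome 10, plus strand, 100015630 to 100100416), had 5.90, 6.98, 10.5 and 8.16 CPM in PERK KO libraries 1 to 4, and 4.40, 3.67, 1.17 and 6.23 CPM in Scramble libraries 2 to 5. Scramble library 4 was the lowest, and only Scramble library 5 reached into the range of the PERK KO libraries. The log2 difference of Kitl was 1.03 (SE 0.42, edgeR adjusted p = 0.142). Csf1, the main growth factor of macrophages (ENSMUSG00000014599.10, chromosome 3, minus strand, 107741048 to 107760469), had 17.8, 16.5, 23.1 and 27.8 CPM in PERK KO libraries 1 to 4, and 14.4, 18.0, 16.4 and 14.3 CPM in Scramble libraries 2 to 5. PERK KO libraries 3 and 4 were above every Scramble library and PERK KO libraries 1 and 2 within their range (log2 difference 0.43, SE 0.18, edgeR adjusted p = 0.147).

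Pdgfa (ENSMUSG00000025856.15, chromosome 5, minus strand, 138976014 to 138997370) had 13.4, 23.4, 16.8 and 19.3 CPM in PERK KO libraries 1 to 4, and 13.1, 13.4, 9.75 and 13.7 CPM in Scramble libraries 2 to 5. Its log2 difference was 0.54 (SE 0.19, edgeR adjusted p = 0.0881), and it passed only without PERK KO replicate 1 (adjusted p = 0.0344), whose value lay among those of the Scramble libraries. Flt3l (ENSMUSG00000110206.1, chromosome 7, minus strand, 45129788 to 45136432) had 1.74, 2.00, 1.74 and 1.59 CPM in PERK KO libraries 1 to 4, and 1.21, 0.635, 0.953 and 0.155 CPM in Scramble libraries 2 to 5. Every PERK KO library was above every Scramble library, yet with 8 to 82 counts per library the log2 difference of 1.25 (SE 0.71) did not pass (edgeR adjusted p = 0.297). Flt3l shares 856 exon bases with the protein-coding Gm45713 on the same strand, which had no count in any library. Strand cannot separate reads from these bases, and whether they were left out of the Flt3l counts was not tested. Pdgfa shares 813 exon bases with 6330403L08Rik on the opposite strand, which had 0 to 53 counts in PERK KO libraries and 60 to 95 counts in Scramble libraries. Il34, the second ligand of the Csf1r product (ENSMUSG00000031750.15, chromosome 8, minus strand, 110741829 to 110805924), had no count in any PERK KO library and 4 counts in Scramble library 4, with none in the other 3 Scramble libraries.

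By mean level per exon length the ligands ran in 1 order in both groups: Pdgfa, Csf1, Kitl, Flt3l and Il34. Pdgfa averaged 5.84 ± 1.34 CPM per kb in PERK KO and 4.00 ± 0.592 in Scramble libraries, and overlapped Csf1 in both groups, which averaged 4.04 ± 0.983 CPM per kb in PERK KO and 2.99 ± 0.331 in Scramble libraries. Kitl averaged 1.33 ± 0.334 CPM per kb in PERK KO and 0.654 ± 0.355 in Scramble libraries. Flt3l averaged 0.456 ± 0.0443 CPM per kb in PERK KO and 0.191 ± 0.118 in Scramble libraries. In Scramble libraries Kitl overlapped Flt3l, and Flt3l overlapped Il34, and in Scramble library 4 Flt3l was above Kitl, at 0.246 and 0.198 CPM per kb. The receptor used for enrichment was above its own ligand per exon length in both groups.

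**Figure D3:**
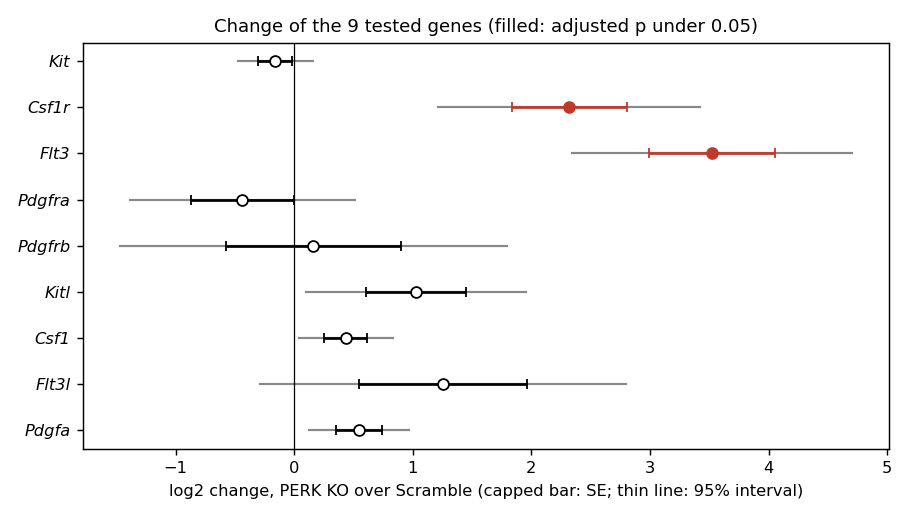
Log2 change of the 9 tested members, PERK KO over Scramble, with the SE (capped bar) and 95% interval (thin line) of the edgeR fit (n = 4 each). Csf1r and Flt3, filled, are the members past an adjusted p of 0.05; the interval of Kit is the narrowest and includes 0.

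To ask which cells carry the Kit signal, Kit was set beside marker lists of the cell types known to express it. In these bulk libraries, fewer cells of a type and less RNA per cell cannot be told apart. Counts of markers that rose or fell stand against 7.66% of all genes tested called higher and 6.13% called lower. The 17 melanocyte markers summed to 20968, 20948, 20045 and 17239 CPM in PERK KO libraries 1 to 4, and to 26204, 26580, 26425 and 26016 CPM in Scramble libraries 2 to 5. All 17 were tested, 10 fell and none rose, with a median log2 change of -0.45. Oca2, a melanosome membrane transporter, fell by a log2 value of 1.57 (SE 0.16; edgeR adjusted p = 0.000228), the ion channel gene Trpm1 fell by 1.18 (SE 0.13, adjusted p = 0.000427) and the melanocortin receptor gene Mc1r fell by 0.79 (SE 0.09, adjusted p = 0.000633). Dct, which encodes a melanin synthesis enzyme and had the highest mean CPM of the list over all 8 libraries, had 6196 ± 1035 CPM in PERK KO and 7777 ± 162 CPM in Scramble libraries (SD, n = 4 each, edgeR adjusted p = 0.0873).

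The ratio of Kit to the melanocyte markers did not pass a test between the groups. There were 6.99, 6.64, 10.2 and 12.2 CPM of Kit per 1000 CPM of melanocyte markers in PERK KO libraries 1 to 4, and 7.05, 8.41, 6.42 and 7.94 in Scramble libraries 2 to 5. PERK KO libraries 3 and 4 were above the Scramble range, PERK KO libraries 1 and 2 within it. The mean log2 ratio differed by 0.24 (-6.84 ± 0.43 in PERK KO and -7.08 ± 0.17 in Scramble libraries, SD, n = 4 each; exact two-sided permutation test over 70 assignments, p = 0.343).

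The mast cell markers moved over a far wider range than Kit. Their 17 members summed to 728, 1081, 1640 and 3219 CPM in PERK KO libraries 1 to 4, and to 139.6, 155, 23.6 and 171 CPM in Scramble libraries 2 to 5, so the highest library was 137 times the lowest. Of 15 tested, 13 rose and none fell, with a median log2 change of 3.63. Cpa3, the mast cell carboxypeptidase and the most abundant of the list, had 219.9, 306, 462 and 1012 CPM in PERK KO libraries 1 to 4, and 35.6, 44.0, 5.44 and 50.8 CPM in Scramble libraries 2 to 5. It rose by a log2 value of 3.88 (SE 0.78; edgeR adjusted p = 0.0180), by 3.27 without PERK KO replicate 4, and leaving out Scramble replicate 2 or 3 ended its call (adjusted p = 0.0542 and 0.0606). The high-affinity IgE receptor subunit gene Ms4a2 was higher by 3.44 (SE 0.65, adjusted p = 0.00612), and Rab27b, which acts in granule release, by 3.64 (SE 0.75, adjusted p = 0.00952).

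Scramble library 4 and PERK KO library 4 mark the ends of that range. In Scramble library 4, where the mast cell markers summed to 23.6 CPM and Cpa3 stood at 5.44 CPM, Kit was still 169.7 CPM. In PERK KO library 4, where the mast cell markers summed to 3219 CPM, Kit was 211 CPM. Per exon length, Kit averaged 19.7 CPM per kb in PERK KO and 22.0 CPM per kb in Scramble libraries, Cpa3 averaged 329.8 CPM per kb in PERK KO and 22.4 CPM per kb in Scramble libraries, and Dct averaged 1051 CPM per kb in PERK KO and 1319 CPM per kb in Scramble libraries. The pigment genes Tyrp1 and Pmel were above Dct on that scale, Tyrp1 with 2016 CPM per kb in PERK KO and 2755 CPM per kb in Scramble libraries. Per 1000 CPM of mast cell markers there were 65.5 to 201 CPM of Kit in PERK KO libraries and 1207 to 7200 CPM in Scramble libraries. The mean log2 ratio was -3.05 ± 0.67 in PERK KO and 1.01 ± 1.23 in Scramble libraries (SD, n = 4 each), a difference of -4.06. Its exact two-sided permutation p of 0.0286 is the smallest that 70 assignments can give, and adjusted over the 2 ratios it was 0.0571. The mast cell list was chosen with earlier results of these data known, and its sums did not overlap between the groups. With Kit varying far less, this p restates the rise of the mast cell markers and is no evidence about Kit. Without Scramble replicate 4 the difference of the log2 ratio was -3.45.

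**Figure D4:**
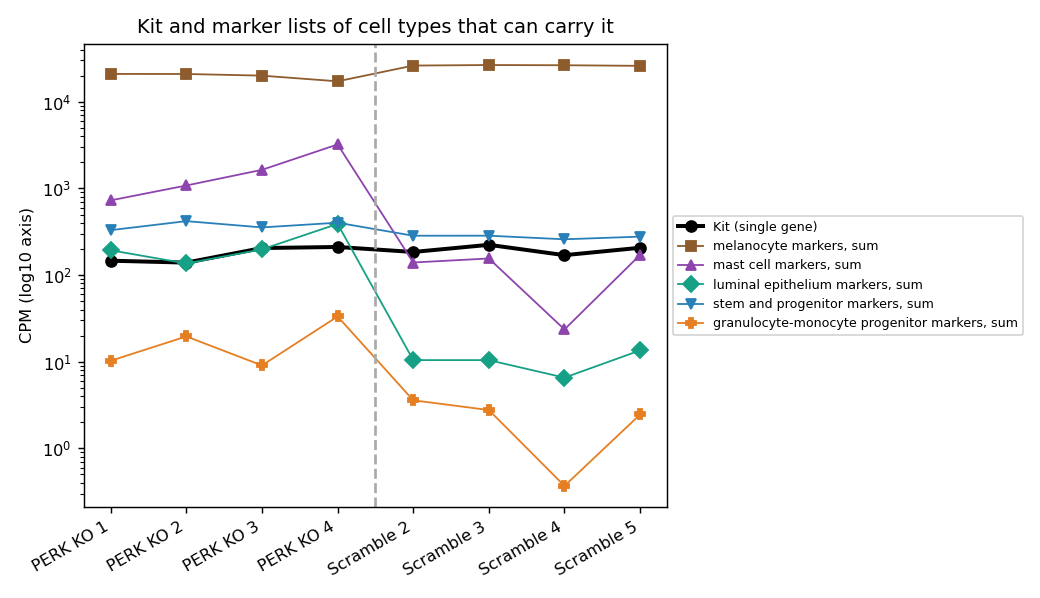
Kit (black, single gene) and summed CPM of marker lists of cell types that can carry it, by library on a log10 axis, PERK KO libraries left of the dashed line; lines only guide the eye. Kit stays between 139 and 223 CPM while the mast cell sum runs from 23.6 to 3219 CPM and the melanocyte sum from 17239 to 26580 CPM. All libraries came from cells enriched by c-Kit, and the part of that selection in the Kit level was not tested.

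Within each group, the order of the libraries in Kit was set beside their order in the marker sums. PERK KO libraries 3 and 4, with 205 and 211 CPM of Kit, held the largest mast cell sums of their group (1640 and 3219 CPM). They also held its smallest melanocyte sums (20045 and 17239 CPM). PERK KO libraries 1 and 2, with 146 and 139 CPM of Kit, held the smallest mast cell sums (728 and 1081 CPM) and the largest melanocyte sums. The mast cell sums thus put these libraries in the reverse of their Kit order. Luminal epithelium markers summed to 193, 136, 198 and 389.5 CPM in PERK KO libraries 1 to 4, the same order as Kit. Stem and progenitor markers summed to 330, 419, 355 and 402 CPM there, a different order. The melanocyte sums of PERK KO libraries 1 to 3 lay close together, from 20045 to 20968 CPM, and library 4 alone stood lower. In Scramble tumours library 4 was lowest in both Kit and mast cell markers, while its melanocyte sum was the second highest of the 4. Library 4 was also lowest in luminal and in stem and progenitor markers (6.54 and 259 CPM). Kit was highest in Scramble library 3 (223 CPM), while the mast cell and luminal sums were highest in Scramble library 5 (171 and 13.5 CPM). The Scramble melanocyte sums also lay close together, from 26016 to 26580 CPM. With 4 libraries in each group, these orders are a description and no relation was tested.

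Marker lists of other cells known to carry Kit differed in how many of their genes were measured and how many rose. Of 20 stem and progenitor markers 17 were tested and 5 rose, with a median log2 change of 0.62, and their sum ran from 330 to 419 CPM in PERK KO libraries and from 259 to 285 CPM in Scramble libraries. Runx1, a transcription factor of blood development, rose by 0.90 (SE 0.17, edgeR adjusted p = 0.00631), and Lmo2, a bridging factor of blood transcription complexes, rose by 2.32 (SE 0.44, adjusted p = 0.00639). Of the granulocyte-monocyte progenitor markers, Mpo, Prtn3 and Ms4a3 had no count in any library. The granule genes Elane and Ctsg had few: Elane 0 in PERK KO and 10 in Scramble libraries, Ctsg 31 and 10. Of that list's 9 genes, 3 were tested. Clec12a, a myeloid lectin receptor and 1 of the 2 that rose, did so by 3.97 (SE 0.89, edgeR adjusted p = 0.0133), and by 3.23 without PERK KO replicate 4. None of 6 tested erythroid markers passed, and that list of 11 summed to at most 17.6 CPM in PERK KO and 13.04 CPM in Scramble libraries. Of 6 tested innate lymphoid markers 3 rose, among them Gata3, a transcription factor of lymphocytes and of luminal epithelium, by 3.42 (SE 0.50, adjusted p = 0.00215).

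Luminal epithelium, whose mammary progenitors carry Kit, had higher marker levels in every PERK KO library than in any Scramble library. Its 15 markers, chosen with their rise already known, summed to 136 to 389.5 CPM in PERK KO libraries and to 6.54 to 13.5 CPM in Scramble libraries. All 15 were tested and 13 rose. Epcam, an epithelial adhesion molecule, rose by 5.77 (SE 0.49, edgeR adjusted p = 9.11e-05), and Cdh1, the cadherin of epithelia, by 2.88 (SE 0.25, adjusted p = 9.11e-05). Keratinocyte markers were low, at 2.44 to 16.7 CPM in PERK KO and 0.433 to 2.73 CPM in Scramble libraries over 10 genes, of which 2 were tested and 1 rose, and of which Krt1 and Krtdap had no count in any library. The part of mast cell, luminal and progenitor cells in the Kit level was not tested.

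**Figure D5:**
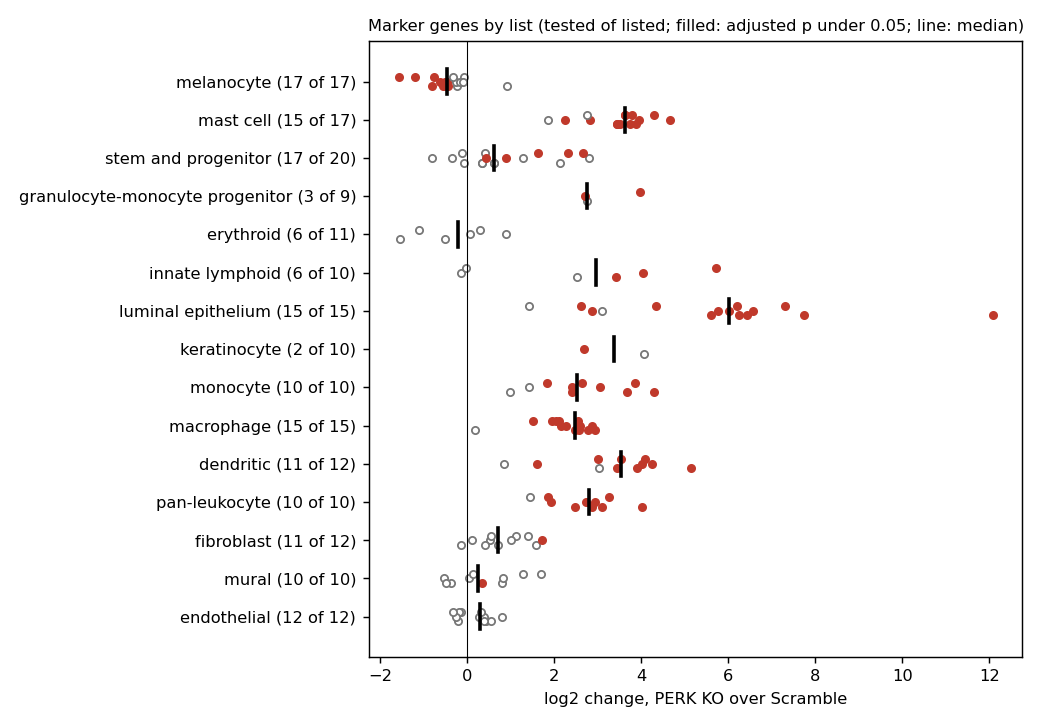
Log2 change of every tested marker gene by list, PERK KO over Scramble; filled points passed an adjusted p of 0.05, the black line is the list's median, and the numbers in brackets are tested of listed genes. Mast cell, myeloid and luminal lists lie to the right of 0 and most melanocyte markers to the left; the point beyond 12 is Ehf, which had no count in Scramble libraries, so its fitted size is set by the prior count.

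Csf1r and Flt3 changed beside the markers of the cells they direct. The 15 macrophage markers summed to 369, 830, 349 and 983 CPM in PERK KO libraries 1 to 4, and to 162, 158, 78.2 and 166 CPM in Scramble libraries 2 to 5, with 14 higher and none lower and a median log2 change of 2.48. Folr2, a folate receptor of resident macrophages, rose by 2.94 (SE 0.45, edgeR adjusted p = 0.00251) and the platelet factor gene Pf4 by 2.58 (SE 0.40, adjusted p = 0.00416). There were 60.7 to 75.2 CPM of Csf1r per 1000 CPM of macrophage markers in PERK KO libraries and 40.9 to 84.1 in Scramble libraries, which overlapped. Both Csf1r and this list, chosen with earlier results of these data known, were higher in PERK KO libraries. The part of macrophage content in the Csf1r change was not tested. Of 10 monocyte markers 8 rose, with a median of 2.52.

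The 12 dendritic cell markers summed to 181, 309, 225 and 1018 CPM in PERK KO libraries 1 to 4, and to 46.5, 43.6, 15.99 and 33.3 CPM in Scramble libraries 2 to 5. Of 11 tested, 9 rose, with a median log2 change of 3.54, and Siglech, the marker of plasmacytoid dendritic cells, was not tested. Itgax, the integrin chain CD11c, rose by 3.44 (SE 0.42, edgeR adjusted p = 0.000764), and Xcr1, a chemokine receptor of cross-presenting dendritic cells, by 4.08 (SE 0.79, adjusted p = 0.0119). The Xcr1 change was 3.24 without PERK KO replicate 4 and its call ended without Scramble replicate 3 (adjusted p = 0.0514). There were 43.5 to 85.8 CPM of Flt3 per 1000 CPM of dendritic markers in PERK KO libraries and 41.7 to 84.0 in Scramble libraries, which overlapped. This list too was chosen with earlier results known. The part of dendritic cell content in the Flt3 change was not tested.

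Of the stromal receptors, Pdgfrb varied with single libraries and Pdgfra did not: leaving out any 1 library kept the Pdgfra log2 difference between -0.55 and -0.31, none of which passed. The 12 fibroblast markers summed to 150, 199, 319 and 241 CPM in PERK KO libraries 1 to 4, and to 318, 134, 79.8 and 146 CPM in Scramble libraries 2 to 5, and 1 of 11 tested rose. PERK KO library 3 and Scramble library 2, highest in fibroblast markers within their groups, were also highest in Pdgfrb. Pdgfrb per 1000 CPM of fibroblast markers still ran from 4.54 to 42.8 in PERK KO libraries and from 16.1 to 36.2 in Scramble libraries. Pdgfra per 1000 CPM of fibroblast markers ran from 5.46 to 10.5 in PERK KO libraries and from 9.68 to 23.1 in Scramble libraries, overlapping only between PERK KO library 1 and Scramble library 2. Of 10 tested mural markers 1 rose, and their sum ran from 125 to 198 CPM in PERK KO and from 83.5 to 147 CPM in Scramble libraries. The endothelial list, of which none of 12 passed, summed to 58.0 CPM in Scramble library 4, against 249 to 281 CPM in the other Scramble libraries and 87.1 to 386 CPM in PERK KO libraries. Scramble library 4 was also the lowest of all 8 in Kitl, a ligand that endothelial cells make. There were 27.2 to 67.7 CPM of Kitl per 1000 CPM of endothelial markers in PERK KO libraries and 14.8 to 22.2 in Scramble libraries, without overlap. How often such a ratio would separate the groups for other genes was not counted. The part of endothelial content in the Kitl level was not tested.

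Genes whose variation among libraries most resembled that of each receptor were ranked by Pearson r of log2 CPM over the 8 libraries after removing each group's mean, among 11841 genes. With so few libraries high values are common, so the ranks are descriptive. For Kit the 5 highest were Ago3 (r = 0.972), Arhgef17 (0.970), Rapgef6 (0.962), Mapk12 (0.957) and Fryl (0.955). For Csf1r they were Tlr13 (0.989), Cmklr1 (0.978), C1qc (0.968), App (0.967) and Rnase4 (0.962), of which C1qc is on the macrophage list. For Flt3 they were Nrp2 (0.992), Nrd1 (0.981), Tgfb3 (0.981), Stat2 (0.978) and D1Ertd622e (0.973). For Pdgfra and Pdgfrb the first were Zrsr1 (0.981) and Zbtb48 (0.985).

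Of 36 proximal kinases, adaptors and effectors below the receptors, 4 rose and 3 fell, with a median log2 change of -0.01. Over all genes tested 7.66% were called higher and 6.13% lower, so these counts are near the background. Lyn, a Src-family kinase of blood cells that couples to Kit, had 29.3 ± 15.5 CPM in PERK KO and 7.50 ± 1.19 CPM in Scramble libraries (SD, n = 4 each) and rose by 1.97 (SE 0.30, edgeR adjusted p = 0.00232). Vav1, an exchange factor restricted to blood cells, rose by 2.49 (SE 0.53, adjusted p = 0.0103) and Plcg2, a phospholipase, by 0.96 (SE 0.21, adjusted p = 0.0122). Akt1, the kinase downstream of PI3-kinase, had 238 ± 24.3 CPM in PERK KO and 324 ± 22.2 CPM in Scramble libraries (SD, n = 4 each) and fell by 0.45 (SE 0.09, edgeR adjusted p = 0.00990). Vav1 is also on the pan-leukocyte list, of which 9 of 10 rose in the same libraries, and the part of leukocyte content in these changes was not tested.

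Of 22 negative regulators 20 were tested, 4 rose and 2 fell, with a median of 0.16. The shares over all genes tested were 7.66% higher and 6.13% lower. The part of leukocyte content in these changes was not tested either. Cblb, a ubiquitin ligase that marks activated receptors for degradation, had 81.5 ± 19.8 CPM in PERK KO and 38.2 ± 3.80 CPM in Scramble libraries and rose by 1.09 (SE 0.16, edgeR adjusted p = 0.00209). Sla, an adaptor of lymphocytes and myeloid cells, rose by 4.08 (SE 0.92, adjusted p = 0.0217). The Sla change was 2.83 without PERK KO replicate 4, and leaving out Scramble replicate 2, 3 or 5 ended its call (adjusted p = 0.0716, 0.0740 and 0.0570). The MAP kinase phosphatases Dusp6 and Dusp4, which ERK signalling induces, fell by 0.39 and 0.41 (SE 0.08 and 0.09, edgeR adjusted p = 0.00862 and 0.0134). Leaving out Scramble replicate 2 or 3 ended the Dusp4 call (adjusted p = 0.0530 and 0.0505).

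Of 16 transcription factors known to act on the receptor genes 15 were tested, 6 rose and none fell, with a median of 0.62. The shares over all genes tested were 7.66% higher and 6.13% lower. Several of these factors act in blood cells, and 9 of 10 pan-leukocyte markers rose in the same libraries. The part of leukocyte content in these changes, and any action on the receptor genes, was not tested. Gata2, which drives Kit in blood progenitors and mast cells and is also on the mast cell list, had 26.2 ± 13.5 CPM in PERK KO and 5.54 ± 1.202 CPM in Scramble libraries (SD, n = 4 each) and rose by 2.24 (SE 0.32, edgeR adjusted p = 0.00162). Spi1, which encodes PU.1 and drives Csf1r in myeloid cells, rose by 2.98 (SE 0.53, adjusted p = 0.00886), and by 2.30 without PERK KO replicate 4. Mitf, which acts on Kit in melanocytes and mast cells, did not pass, with 706, 595.5, 617 and 527 CPM in PERK KO libraries 1 to 4, and 705, 725, 726 and 696 CPM in Scramble libraries 2 to 5 (edgeR adjusted p = 0.149). Mitf was named after its values were seen.

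Of 11 genes for further platelet-derived growth factors and for the processing of these ligands, 1 rose and none fell, with a median of -0.05. The shares over all genes tested were 7.66% higher and 6.13% lower. Pdgfc, a ligand activated by proteolysis, had 1.64, 1.39, 2.83 and 8.27 CPM in PERK KO libraries 1 to 4, and 1.07, 0.326, 0.238 and 0.445 CPM in Scramble libraries 2 to 5. It rose by 2.76 (SE 0.74, edgeR adjusted p = 0.0289), but its call ended without PERK KO replicate 4 (1.90, adjusted p = 0.127) as well as on leaving out Scramble replicate 3, 4 or 5 (adjusted p = 0.0954, 0.0810 and 0.0842). Its change was 3.38 on leaving out Scramble replicate 2.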

How the data were processed

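RNA of 8 libraries, 4 PERK KO and 4 Scramble, was read as strand-specific pairs of 105 bases from 100 ng of RNA, per the labels' protocols. Among the software in the submitters' processing notes are STAR 2.5.3a and HTSeq 0.6.1; DESeq2 1.30.1, bcl2fastq and the genome build mm10 are named there too, with no settings. The authors deposited whole-number counts per gene, and a second table whose signal is those counts divided by 1 factor per library, used only as a check. All 55450 gene identifiers matched GENCODE M21, the source of positions and exon lengths.

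Genes were filtered with filterByExpr, scaled with TMM factors (0.863 to 1.03) and compared in edgeR 4.0.16 (R 4.3.3) by its quasi-likelihood test (robust, ~ group), with Benjamini-Hochberg adjustment over 16662 genes and a threshold of 0.05; the biological coefficient of variation was 46.3%. SE values are the log2 change divided by the root of the F statistic. Log2 CPM used a prior count of 2. On simulated data with 16662 genes, recovery was 26% at 1.5-fold, 52% at 2-fold, 74% at 4-fold and 82% at 8-fold, and 7 of 16462 unchanged genes were called. Alternatives used DESeq2 1.42.0, limma 3.58.1 (voom) and other edgeR settings. Tables and plots used Python 3.11.15, numpy 2.4.6, pandas 2.3.3 and matplotlib 3.10.9.

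The members, the 4 pathway lists and the 15 marker lists were chosen with earlier results of these data known. Named genes were the members, from each pathway list up to 4 calls with the smallest p, and from each marker list up to 3 such calls and the most abundant gene; the text writes out some of these. Nothing says that the libraries come from separate mice, so p-values measure the spread between these tumours. The numbers 2, 3 and 4 occur in both groups, but the labels do not say that they pair the libraries, and the test reported did not pair them.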

Additional observations from a re-analysis of the deposited data

Results flagged for a closer look

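In 7 of the 54 groups of 4 libraries examined, 1 library lay far from the other 3, by a test that chance alone meets in about 1 of 20 groups. The groups share the same libraries and related genes, so the 7 cannot be set against that share as if independent. Scramble library 4 accounted for 6 of the 7. It had 0.0866 CPM of Il34, which is 4 counts, against 0 in the other Scramble libraries, where any count at all would meet the test. It had 9.75 CPM of Pdgfa, against 13.1 to 13.7 CPM in the other Scramble libraries. Its monocyte markers summed to 12.7 CPM, against 31.96 to 33.7 CPM, its macrophage markers to 78.2 CPM, against 158 to 166 CPM, and its endothelial markers to 58.0 CPM, against 249 to 281 CPM in the other Scramble libraries. Its log2 ratio of Kit to mast cell markers was 2.85, against 0.27 to 0.52 in the other Scramble libraries. PERK KO library 4 accounted for the remaining one, with 1018 CPM of dendritic cell markers, against 181 to 309 CPM in the other PERK KO libraries.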

How the results depend on the processing

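The Kit difference kept its direction and did not pass under any alternative run, from -0.27 to -0.06 on the log2 scale. The Kit to melanocyte ratio likewise did not pass (0.07 to 0.37 without 1 library each), and the Kit to mast cell ratio lay between -4.31 and -3.45 without 1 library each; without PERK KO libraries 2 and 3, a choice made after seeing the data, it was -4.13 (exact permutation p = 0.0667, the smallest that 15 assignments can give). The count of called members, 2 in the fit reported, was 1 with no filter on low counts, 0 with the replicate block and 1 to 3 without 1 library each. The count of called genes, 2299, was 208 with the replicate block and 1078 to 2616 without 1 library each. The direction of Pdgfrb turned with limma-voom (-0.49), with the replicate block (-0.31), without PERK KO libraries 2 and 3 (-0.80) and without 1 library in 3 cases, within a range of -1.15 to 0.57. Rora turned to 0.0273 with RLE factors, 0.0272 with DESeq2, 0.0432 with upper-quartile factors and 0.0163 with the stricter filter (range -0.0444 to 0.0143 without 1 library each); Hbb-bt turned to -0.14 with limma-voom and -0.61 without PERK KO libraries 2 and 3 (range -0.67 to 0.65 without 1 library each); Cdh5 turned to -0.28 without PERK KO libraries 2 and 3 (range -0.0606 to 0.53 without 1 library each). None of these 4 genes was called. The cause of these changes was not tested. Calls higher made up 55.5% with TMM, 68.7% with upper-quartile factors and 47.7% with library totals alone. Same-numbered libraries deviated with correlations of -0.009, 0.098 and -0.204. With 3 shared numbers these values cannot tell whether same-numbered libraries were handled together, and the labels give no pairing. The block uses the 3 shared numbers only. Pdgfra, Flt3l and Il34 rest on few counts, which limits what could be detected.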
